A study of Schmidtea mediterranea with 6 samples.

Results

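Among the poly(A) sites that a custom array of the planarian flatworm Schmidtea mediterranea measured, 1845 had a narrow mapped end and the canonical poly(A) signal AATAAA at a fixed range of distances before it. They were chosen by position and letters alone. The name of each array sequence closes with a contig, a strand, a start and an end, and sites whose end minus start was at most 15 nt were called narrow. A narrow sequence was a member if AATAAA began 10 to 35 nt before its 3′ end. Each distinct sequence counted once, which gave 1845 members among 4029 narrow sequences (45.8%) and 5406 sequences in all. Of the other 2184 narrow sequences, 333 had the variant ATTAAA without AATAAA in that window and 1851 had neither hexamer.

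Poly(A) signals tell the cell where to end a messenger RNA. The hexamer AAUAAA, written AATAAA in DNA letters, is bound by the cleavage and polyadenylation specificity factor (CPSF), the transcript is cut a short way downstream, and a poly(A) tail is added at the cut. In vertebrates, a UGUA motif upstream of the cut is bound by cleavage factor I, and the one-base variant AUUAAA is the most common substitute for the canonical hexamer. Many genes hold several such signals, and the choice among them sets how much of the 3′ untranslated region a transcript keeps.

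The arrays compared 3 cell populations that were sorted by flow cytometry from worms of the sexual strain, with 2 arrays each. According to the labels, the Xins gate holds differentiated cells, the X2 gate progenitors and the X1 gate stem cells (the dividing neoblasts of the adult worm). RNA was selected with oligo-dT, amplified linearly and labelled with Cy3. The labels give no treatment, age or sorting purity, and leave unstated whether a gate's 2 samples were separate animals or separate sorts. The spread behind the p-values below is therefore that between these samples and may be technical. No file pairs the transcript models with names of genes, so marker genes of the 3 gates could not be checked. All 6 arrays lay on 1 slide, and their number limits the precision.

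The 3′ ends of 11 members are shown because they had the largest called differences among members above background on all arrays of the gates compared, were called highest in X2, or had the brightest steady signals. Each line gives 30 bases in the 5′ to 3′ direction of the transcript, ending at the 3′ end of the array sequence except in 1 case, and the capitals mark AATAAA inside the window. The stretch of mk4.034612.00.01 starts 31 nt before the end, so its last base is not shown. The first sequence holds 2 overlapping copies of the hexamer.
OX_Smed_1.0.02981: ccaaacaAATAAAATAAAatctttgcttaa
OX_Smed_1.0.06065: tttaaAATAAAttggtttttcattttttag
OX_Smed_1.0.02114: agttgAATAAActcttactcttactgttac
dd_smedV4_21323_0_1: actAATAAAtgttgttgatttagttgtttt
mk4.034612.00.01: AATAAAaattactttgtgtttctatttaaa
mk4.000014.01.01: cgAATAAAtgatctggattgttgttcgaaa
dd_smedV4_2520_0_1: taAATAAAtgtttgtatttctatattattt
OX_Smed_1.0.20673: gttttaAATAAAtatggatttgtttagtat
OX_Smed_1.0.16885: tggtgAATAAAttgatttttgtcttttctt
OX_Smed_1.0.02969: ttAATAAAtttcttattggtttttacatat
OX_Smed_1.0.04102: AATAAAtgcttgctattgtttgattttttc

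Members stood at 1874 distinct sites on 1573 contigs, since 29 sequences occurred at 2 sites. Transcripts ran on the plus strand at 877 members and on the minus strand at 968. No member overlapped another designed region on its own strand, where the smallest gap between sites was 75 nt, and 4 members overlapped one on the opposite strand. A stretch of 25 nt was shared with another array sequence by 86 members, whose signals are therefore not independent of those sequences. Of all members, 742 were named by 1 transcript model and the most by 18. As for the genome build, it is not given in the sources used, and all coordinates are those of the files.

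The hexamer began at a median of 23 nt before the 3′ end (quartiles 21 and 25), and 1426 members (77.3%) had it 18 to 26 nt before the end. The distance depends in part on how wide a site is. At the 900 members whose start and end were the same base, the median was 21 nt (quartiles 19 and 23), and 83.8% lay within 18 to 26 nt. A single copy of AATAAA was in the window of 1728 members, 108 held 2 copies and 9 held 3.

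**Figure D1:**
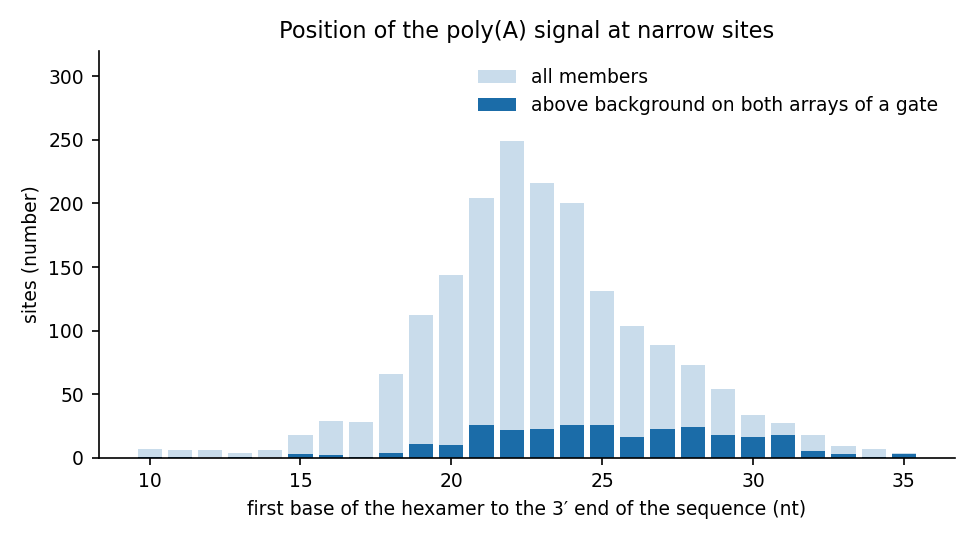
Number of members (vertical axis) at each distance in nt between the start of AATAAA and the 3′ end of the sequence (horizontal axis); light bars are all 1845 members and dark bars the 284 marked above background by both arrays of 1 or more gates. The light bars peak near the median of 23 nt, and the dark bars make up 35.2% of the light bars from 27 to 35 nt together.

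Sequence features outside the rule differed little from those of other narrow sites, apart from other A- and T-rich hexamers. TGTA, the DNA form of the cleavage factor I motif, was read on the transcript strand only. It occurred in 30.3% of members, 32.6% of other narrow sequences and 33.2% of all sequences. The sequence ended in T at 57.3% of members and 58.2% of other narrow sites. T made up 49.9% of the last 10 nt in members and 48.5% in other narrow sequences. The one-base variant AATATA lay in the same window at 5.58% of members and 29.0% of other narrow sites, against 16.6% of all sequences. TATAAA did so at 5.75% of members, 11.1% of other narrow sites and 8.27% of all sequences. A match is a description of the letters and not a mapped signal, and the cause of these differences in share was not tested.

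Members were AT-rich and slightly lower in GC content, with a median of 20% (quartiles 15.6 and 24.4) against 22.2% (17.4 and 26.7) at other narrow sites. Every narrow sequence was 45 nt long plus the width of its site, so that site width and sequence length cannot be told apart. A width of 0 applied to 900 members (48.8%) and to 1291 other narrow sites (59.1%).

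Most members gave no signal that the scanner software marked as well above background. On X1 arrays 1 and 2, 324 and 259 members were so marked, on X2 arrays 309 and 266, and on Xins arrays 303 and 231. These are 12.5 to 17.6% of members, against 16.8 to 22.8% of other narrow sites. The share was lower for members on each of the 6 arrays. No array marked 1372 members (74.4%), against 1495 other narrow sites (68.5%). On average over members, a surrogate value had replaced a too low signal at 62.9 to 69.2% of a member's spots per array. Most members were not well above background in any gate. The results that follow concern the minority that was detected.

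**Figure D2:**
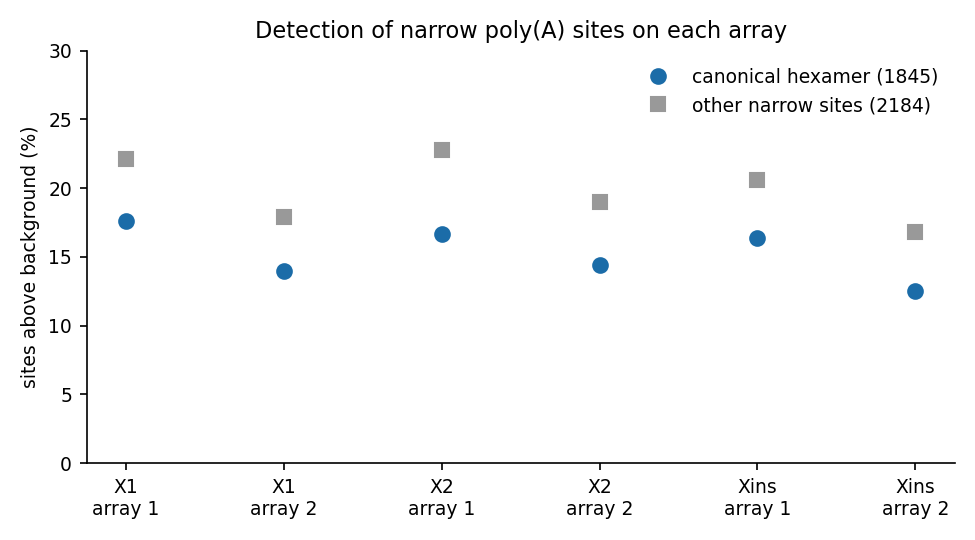
Share of sites marked well above background (vertical axis, percent) on each of the 6 arrays (horizontal axis), with circles for the 1845 members and squares for the 2184 other narrow sites. The circles lie between 12.5 and 17.6% and below the square on every array, and within each gate array 2 is lower than array 1.

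Both arrays of a gate marked 201 members in Xins (10.9%), 234 in X2 (12.7%) and 232 in X1 (12.6%). Among other narrow sites the shares were 15% in Xins, 17.3% in X2 and 16.3% in X1. At least 1 gate qualified in this way for 284 members (15.4%), against 448 other narrow sites (20.5%) and 1578 of all sequences (29.2%). The other narrow sites were a mixture, with 37 of the 333 that held ATTAAA only tested (11.1%) and 411 of the 1851 with neither hexamer (22.2%). Members thus lay between those groups. The 284 are the tested members below. Of them, 159 qualified in all 3 gates, 42 in X1 and X2 but not Xins, and 17 in Xins and X2 but not X1. A single gate qualified for 25 in X1, 19 in Xins and 16 in X2, and X1 and Xins without X2 for 6. The largest set after the shared one was thus X1 with X2, as among other narrow sites, where 255 qualified in all 3 gates and 70 in X1 and X2.

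Site width and GC content moved with detection. Members were tested in 6.22% of cases at width 0, 14.1% at 1 to 5 nt, 27.1% at 6 to 10 nt and 52.3% at 11 to 15 nt. The shares of other narrow sites were 12.1, 23.5, 39.9 and 49.0% in the same order. Members were thus lower in the 3 narrower bins and not in the widest. By GC content, the tested share of members was 0.781% under 16% GC, 6.65% from 16 to 20%, 17.3% from 20 to 24%, 28.4% from 24 to 28% and 41.1% at 28% or more. Other narrow sites had 1.71, 8.23, 17.9, 27.9 and 43.9%. Within bins of GC content the shares of members and other narrow sites thus lay close together. With GC content and width (0, or 1 to 15 nt) crossed, members had the lower share in 9 of 10 cells. With width 0 and a GC content of 28% or more, 24% of members and 34.6% of other narrow sites were tested, and with a width of 1 to 15 nt and 24 to 28% GC, 47.4 and 55.3%. The cell that went the other way was width 0 with 24 to 28% GC, at 11.8 and 11.7%. Sequences are not replicates, and the part of width, length or GC content in the lower detection was not tested further.

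**Figure D3:**
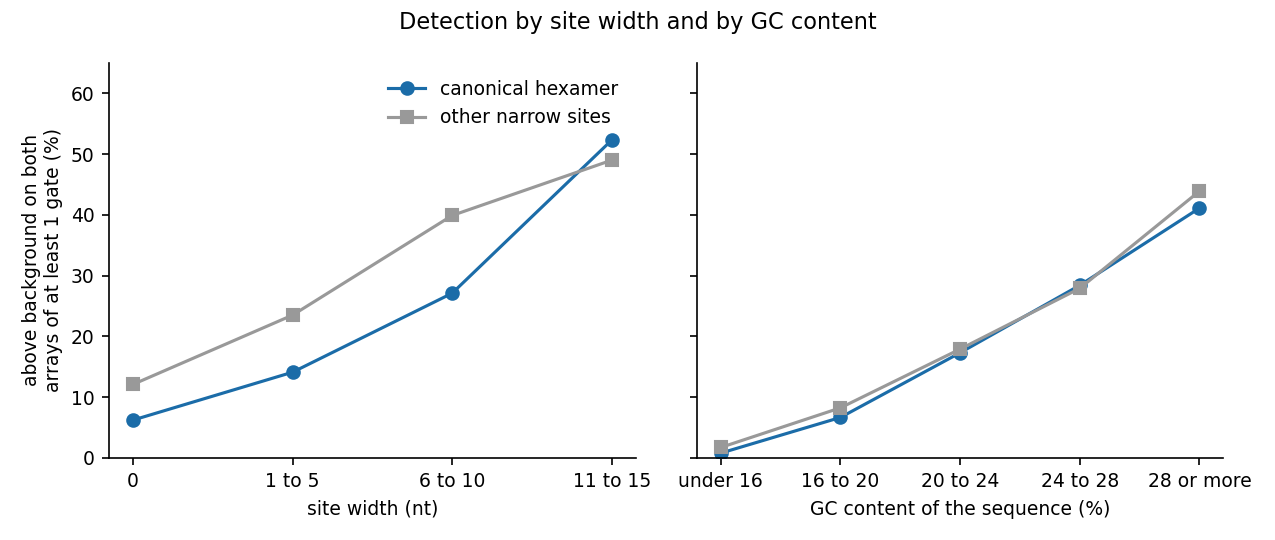
Share of sequences marked above background by both arrays of 1 or more gates (vertical axis, percent) by site width in nt (left) and by GC content of the sequence in percent (right), with circles for members and squares for other narrow sites. Members lie below other narrow sites at widths of 0 to 10 nt (6.22 against 12.1% at width 0), and the lines for GC content nearly coincide.

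Detection also differed along the hexamer distance. Of members with AATAAA at 27 to 35 nt, 35.2% were tested, against 15.6% at 24 to 26 nt, 10.6% at 21 to 23 nt, 7.76% at 18 to 20 nt and 8.65% at 10 to 17 nt. The median site width in these bins was 9 nt for the farthest, 4 nt for 24 to 26 nt and 0 for the others. Among the members of width 0, the tested share was 7.55% at 27 to 35 nt, 2.29% at 24 to 26 nt, 7.61% at 21 to 23 nt, 4.55% at 18 to 20 nt and 9.68% at 10 to 17 nt, with no order along the distance. Members with 2 or more copies of the hexamer were tested in 7.69% of 117 cases, and those with 1 copy in 15.9%. Their median GC content was 18.5 and 20%. The share was 15.4% with TGTA and 15.4% without it. The number of transcript models did little, with 15.4% tested at 1 model, 14.3% at 2, 17% at 3 and 15.1% at 4 or more.

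The window and the width limit have neighbours on either side. At a distance of 33 to 35 nt, just inside, 7 of 20 members were tested. At 36 to 38 nt, just outside, 3 of 11 narrow sequences were. At 10 to 12 nt, 2 of 19 members were tested. No narrow sequence without AATAAA in the window had it at 6 to 9 nt. Of the 74 members 13 to 15 nt wide, 46 were tested (62.2%). Of the 54 sites 16 to 18 nt wide that held the hexamer, 24 were (44.4%).

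Signals below are log2 intensities minus the array's own 75th percentile, which was taken over the sequences above background on all 6 arrays. The tested members had medians of -3.81 and -3.76 on the X1 arrays, -3.77 and -4.21 on the X2 arrays and -4.06 and -4.10 on the Xins arrays. Other narrow sites had -4.04 and -4.07, -3.93 and -4.10, and -4.20 and -4.27 in that order. These values rank arrays and not abundances, since sequences differ in how well they bind. Their highest signal was 6.16, on X1 array 2, and no member was saturated on any array. Over the 284 members, arrays of the same gate correlated at 0.926 in Xins, 0.948 in X2 and 0.963 in X1 (Pearson's r, a description across sites that share arrays). Between gates, r was 0.866 to 0.907 for X2 with X1, 0.773 to 0.84 for Xins with X2 and 0.657 to 0.694 for Xins with X1.

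Among the detected members, signals in differentiated cells were more often lower than higher in comparison with stem cells. In limma's test across all 1578 tested sequences (Benjamini-Hochberg adjusted p under 0.05), 105 members (37.0%) fell in Xins against X1 and 48 (16.9%) rose. The background was 25.7% of all tested sequences lower and 24.3% higher. Other narrow sites had 125 lower (27.9%) and 88 higher (19.6%). The median log2 fold change was -0.82 (quartiles -1.88 and 0.80) over the tested members, -0.38 over other narrow sites and -0.19 over all. Among the other narrow sites, the 37 with ATTAAA only had 11 falls and 9 rises with a median of -0.19, and the 411 with neither hexamer had 114 falls and 79 rises with a median of -0.39. In bulk RNA, fewer cells of a type and less of a transcript per cell cannot be told apart.

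Of the Xins against X1 calls, 68.6% were lower in members, 58.7% in other narrow sites and 51.4% over all. With the value table that the authors deposited, converted to log2, 52.8% of member calls were lower, which is the scaling that moved this split by over 10 percentage points. Its median over all sequences lay 0.54 higher than in the main values. There the member median minus that of other narrow sites was -0.51, compared with -0.44 in the main values. Without the first X1 array the count of falls was 68. The filter favours differences. A member that passed in 1 gate only was not marked above background on at least 1 array of each other gate. Among the 159 members above background on all 6 arrays, the median was -0.76, with 60 falls and 17 rises. The matching 255 other narrow sites had -0.25, 53 and 43. With no filter, where surrogates prevail, the medians were 0.08 for members and 0.08 for other narrow sites. With normexp and quantile normalization they were -0.15 and -0.08, so that the gap between the classes was -0.07 there.

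Fold sizes were taken as measured where the dimmer gate was above background on at least 1 array, even if its other array was not. This held for 80 of the 105 falls, with a median of 4.11-fold lower in Xins, and for 29 of the 48 rises, with a median of 4.57-fold higher. At least 4-fold were 40 of these falls and 21 of these rises. Other narrow sites had medians of 3.98-fold over 89 falls and 4.51-fold over 64 rises, with 43 and 38 at least 4-fold. All tested sequences had 3.85-fold over 330 falls and 5.59-fold over 288 rises, with 156 and 195 at least 4-fold. The other 25 falls and 19 rises of members had only bounds, computed from the lowest signal that counted as above background on each dim array. The bounds had medians of at least 4.05-fold for falls and at least 6.63-fold for rises, up to at least 21.1-fold. The 95% interval of a member's log2 fold change reached a median of 1.08 to either side.

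Among the tested members, the median was negative in both same-numbered pairs of arrays and in each bin of width and GC content. These splits use the same arrays and members as the main median and are not separate support for it. With no filter on dim sequences the median over members was 0.08, and with normexp and quantile normalization it was -0.15. The median of Xins minus X1 over the tested members was -0.80 for arrays 1 and -0.84 for arrays 2, and -0.32 in both for other narrow sites. By width, the member medians were -1.28 at 0, -0.92 at 1 to 5 nt, -0.74 at 6 to 10 nt and -0.73 at 11 to 15 nt. Other narrow sites had -0.36, -0.52, -0.26 and -0.10. By GC content, members had -0.72 under 20%, -0.73 from 20 to 24%, -0.89 from 24 to 28% and -1.19 at 28% or more, and other narrow sites had -0.26, -0.32, -0.28 and -0.45. Members with TGTA had a median of -0.97 and those without it -0.79, and other narrow sites had -0.63 with it and -0.21 without it. No test compared the classes, since sequences are not independent replicates, and a difference between them cannot be called a property of the hexamer.

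**Figure D4:**
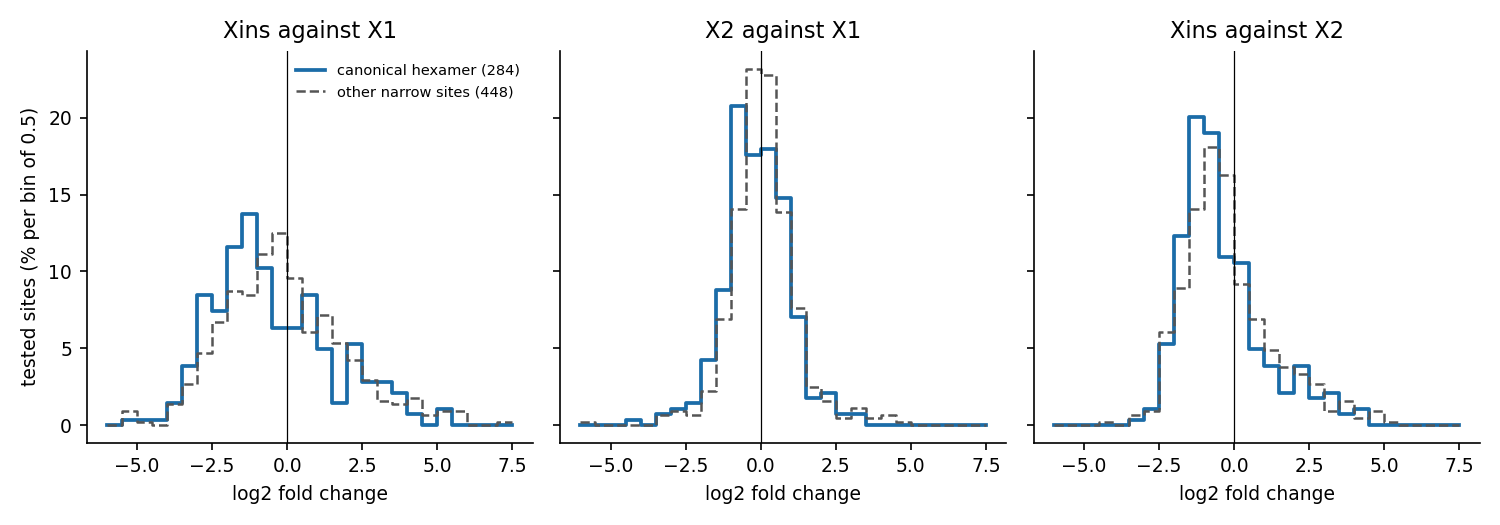
Distribution of log2 fold changes (horizontal axis) as the percentage of tested sites in bins of 0.5 (vertical axis) for the 3 contrasts, with a solid line for the 284 tested members and a dashed line for the 448 tested other narrow sites. The solid line is displaced to the left in Xins against X1 (medians -0.82 and -0.38) and in Xins against X2 (-0.69 and -0.47), medians that turn to 0.08 and 0.13 for members with no filter on dim sequences, while X2 against X1 is centred near 0.

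Among called members above background in both gates, the largest rise was at OX_Smed_1.0.02981 (Contig291, minus strand, 111969 to 111982), whose hexamer copies begin 18 nt and farther before the end. Its signals were -0.19 and 0.24 on the Xins arrays, -3.87 and -4.33 on the X2 arrays and -4.72 and -5.29 on the X1 arrays. The Xins arrays thus stood apart from the other 4. The log2 fold change was 5.03 for Xins against X1 (SE 0.40, limma adjusted p = 0.000639) and 4.12 for Xins against X2 (adjusted p = 0.00492). X2 against X1 was 0.91 (adjusted p = 0.213).

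The site of OX_Smed_1.0.06065 (Contig2559, minus strand, 51520 to 51528) was high in both Xins and X2. Its signals were 0.22 and -0.19 in Xins, -0.49 and -0.34 in X2 and -3.84 and -3.73 in X1. Its fold changes were 3.81 on the log2 scale for Xins against X1 (SE 0.35, limma adjusted p = 0.000689) and 3.37 for X2 against X1 (adjusted p = 0.00649). Between Xins and X2 it differed by 0.43 (adjusted p = 0.366).

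OX_Smed_1.0.02114 (Contig6346, minus strand, 17978 to 17984) was highest in Xins, and its X2 and X1 signals also lay above the upper quartile of tested members. It had 3.02 and 3.32 in Xins, -1.15 and -0.52 in X2 and -0.57 and 0.00 in X1. Against X2 the log2 fold change was 4.01 (SE 0.41, limma adjusted p = 0.00492), and against X1 it was 3.46 (adjusted p = 0.00142).

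At the sites with the largest measured falls, signal was highest in X1, intermediate in X2 and lowest in Xins. The site of dd_smedV4_21323_0_1 (Contig3562, plus strand, 40966 to 40977) had -3.88 and -4.27 in Xins, -1.65 and -2.57 in X2 and 1.54 and 1.08 in X1. Its log2 fold change was -5.38 for Xins against X1 (SE 0.45, limma adjusted p = 0.000639) and -3.41 for X2 against X1 (adjusted p = 0.0129). The X2 call was lost without X1 array 1 (adjusted p = 0.0614) or X2 array 2 (adjusted p = 0.0541), and with spike-in scaling (adjusted p = 0.0563).

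mk4.034612.00.01 (Contig34612, plus strand, 458 to 464) had -3.63 and -3.11 in Xins, -1.10 and -0.83 in X2 and 1.55 and 1.56 in X1. Its log2 fold changes were -4.93 for Xins against X1 (limma adjusted p = 0.000639), -2.40 for Xins against X2 (adjusted p = 0.00851) and -2.53 for X2 against X1 (adjusted p = 0.0147). The X2 against X1 call was lost with spike-in scaling (limma adjusted p = 0.115) and with no filter on dim sequences (adjusted p = 0.0519). Without any 1 of the X1 or X2 arrays, its log2 fold change was -2.66 to -2.39. This sequence shares 44 nt with that of a wide site, mk4.011981.01.01 on Contig11981, which changed by -4.82 for Xins against X1, so the pair is not independent evidence and the source of the signal cannot be assigned to 1 contig.

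mk4.000014.01.01 (Contig14, plus strand, 100842 to 100851) was bright in both X2 and X1. It had -1.63 and -1.30 in Xins, 1.04 and 1.25 in X2 and 1.5 and 1.98 in X1. The fall was -2.61 for Xins against X2 (SE 0.37, limma adjusted p = 0.0078) and -3.20 for Xins against X1 (adjusted p = 0.00125). It shares 27 nt with another member, mk4.000393.00.01, which had -1.48 for Xins against X2 (adjusted p = 0.0283).

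Few members were called between progenitors and stem cells. In X2 against X1, 8 members rose (2.82%) and 4 fell (1.41%), beside 5.39% higher and 1.39% lower among all tested sequences. Other narrow sites had 17 rises and 9 falls. An unadjusted limma p under 0.05 was reached by 79 of 284 members, 107 of 448 other narrow sites and 410 of all 1578 tested sequences. The median log2 fold change was -0.17 over members, 0.03 over other narrow sites and 0.05 over all, and it turned to 0.41 over members with spike-in scaling, which moved the median of all sequences by 0.58. Falls made up 33.3% of the member calls, but 68.0% with the percentile over all sequences, 71.4% with normexp and quantile normalization and 18.2% with spike-in scaling.

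The few X2 against X1 calls became fewer with any 1 X1 or X2 array left out. Such a fit leaves that gate with 1 array and less precision, so it does not show which array the calls rest on. There were 1 rise and 0 falls without X1 array 1, 4 rises and 1 fall without X1 array 2, and 1 rise and 1 fall without either X2 array. Leaving out either Xins array, which enters through the shared spread only, gave more rises and more falls than the full set of arrays. Measured fold changes were available for 4 rises (median 4.92-fold) and 3 falls (median 5.76-fold), and the others had bounds of at least 3.42-fold (median of 4 rises) and at least 6.22-fold (1 fall). The measured medians at other narrow sites were 8.58-fold for 12 rises and 6.79-fold for 6 falls. Over all tested sequences they were 7.95-fold for 56 rises and 5.76-fold for 17 falls.

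Differentiated cells against progenitors gave member counts and a member median between those of the other contrasts. The share of falls among member calls was 71.4%, against 68.6% in Xins against X1 and 33.3% in X2 against X1. In Xins against X2, 65 members fell (22.9%) and 26 rose (9.15%), where all tested sequences had 16.2% lower and 14.6% higher. Other narrow sites had 79 falls (17.6%) and 54 rises (12.1%). The medians were -0.69, -0.47 and -0.36 in the order members, other narrow sites and all sequences. The member median was 0.13 with no filter and -0.09 with normexp and quantile normalization. Falls measured in the dimmer gate had a median of 3.15-fold (50 members) and rises 5.29-fold (20 members). Other narrow sites had 3.59-fold and 5.90-fold, and all tested sequences 3.25-fold and 5.91-fold in that order. Bounds for members were at least 2.93-fold (15 falls) and at least 5.65-fold (6 rises).

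Scaling and single arrays moved these Xins against X2 counts. Falls made up 71.4% of member calls, but 31.8% with the authors' deposited values, whose median over all sequences lay 0.41 higher, and 81.6% with spike-in scaling, whose median lay 0.59 lower (-0.59). With no filter they made up 28% of the member calls, so that rises outnumbered falls. Without X2 array 1 there were 9 falls and 12 rises, and without X2 array 2 there were 12 falls and 15 rises. Falls numbered 33 without Xins array 1 and 31 without Xins array 2.

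The contrasts share arrays, so their calls are not independent, and the levels of a member are set side by side here. The position of X2 depends on the scaling and is given for the main one only. Spike-in scaling moved the median over all sequences by 0.58 in X2 against X1 and by -0.59 in Xins against X2. Of the 153 members called in Xins against X1, X2 lay between the other gates in 131 (85.6%). X2 was nearer to X1 than to Xins in 113 (73.9%). The shares at other narrow sites were similar, at 80.3% between and 72.8% nearer to X1. The median position of X2 on the way from X1 (0) to Xins (1) was 0.373, against 0.320 over 213 other narrow sites. Among the 105 falls, X2 was nearer to X1 in 85 (81.0%), and among the 48 rises in 28 (58.3%). At other narrow sites this held for 79.2% of falls and 63.6% of rises. Of the falls, 4 were also called lower in X2 against X1, 58 in Xins against X2 and 46 in neither. Of the rises, the counts were 6, 24 and 20. Of the 125 falls at other narrow sites, 9 were also called lower in X2 against X1, 68 in Xins against X2 and 53 in neither.

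A peak in X2 was rare. In 2 of the 284 tested members X2 was called above both other gates, and in none below both. Over all 1578 tested sequences 8 were above and 2 below, and of 448 other narrow sites 0 were above and 1 below. At dd_smedV4_2520_0_1 (Contig124, plus strand, 98910 to 98922), the X2 arrays had -0.99 and -0.74, the Xins arrays -2.46 and -2.57 and the X1 arrays -3.19 and -2.76. The log2 fold change was 2.11 for X2 against X1 (SE 0.35, limma adjusted p = 0.0188) and -1.65 for Xins against X2 (adjusted p = 0.0175). Without any 1 of the X1 or X2 arrays, the first had adjusted p of 0.0707 to 0.112, and without any 1 of the X2 or Xins arrays the second had 0.0521 to 0.0886. With no filter on dim sequences both calls were lost (adjusted p = 0.161 and 0.235), and with the authors' values the second was (adjusted p = 0.0518).

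OX_Smed_1.0.20673 (Contig6676, minus strand, 9307 to 9310) had -1.13 and -1.0 in X2, -2.13 and -2.24 in Xins and -2.59 and -2.58 in X1. It passed narrowly, with a log2 fold change of 1.52 for X2 against X1 (limma adjusted p = 0.0434) and one of -1.12 for Xins against X2. Both calls were lost without any 1 array, with adjusted p of 0.0588 to 0.214 in the first and 0.0859 to 0.173 in the second. Both were also lost with no filter, with the percentile over all sequences, with spike-in scaling and with the authors' values, where adjusted p ranged from 0.0552 to 0.681 in the first and from 0.0916 to 0.643 in the second. The other 4 arrays of both sites lay below their X2 arrays.

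Over the 3 gates together, limma's F test called 145 members (51.1%), where 46.6% of all tested sequences and 43.8% of other narrow sites were called. No contrast called 122 members (43.0%), against 220 other narrow sites (49.1%). With 2 arrays a gate, this does not show that their levels were equal. Steady by size, with all 3 log2 fold changes under 0.5 either way and above background on all arrays, were 11 members (3.87%), 37 other narrow sites (8.26%) and 126 of all sequences (7.98%).

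The brightest steady members had values that overlapped between the gates. OX_Smed_1.0.16885 (Contig71, minus strand, 29988 to 29994) had 1.39 and 1.97 in Xins, 1.76 and 2.44 in X2 and 1.67 and 2.12 in X1. OX_Smed_1.0.02969 (Contig1409, minus strand, 57841 to 57850) had -0.40 and 0.22 in Xins, -0.67 and 0.34 in X2 and -0.26 and 0.48 in X1. OX_Smed_1.0.04102 (Contig2192, plus strand, 56950 to 56965), named by 18 transcript models, had -0.56 and -1.17 in Xins, -0.55 and -1.75 in X2 and -1.09 and -1.58 in X1.

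**Figure D5:**
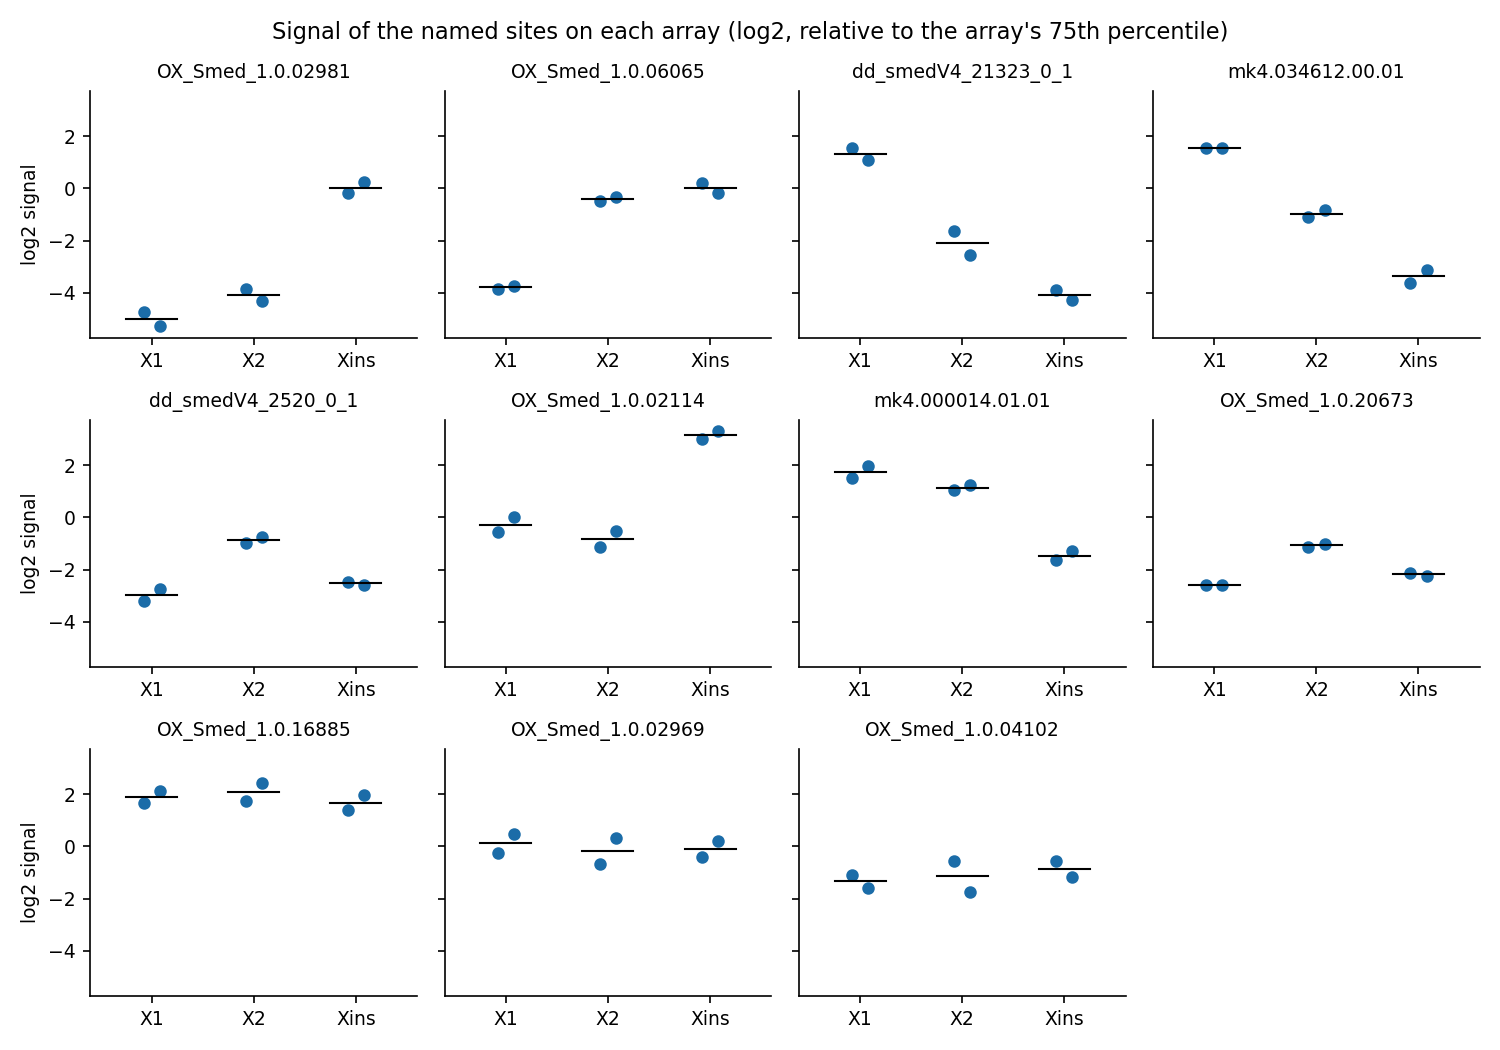
Signal of the 11 named members on each array (vertical axis, log2 relative to the array's 75th percentile) in X1, X2 and Xins (horizontal axis); points are single arrays and bars the mean of the 2 arrays of a gate. The points of OX_Smed_1.0.02981 and OX_Smed_1.0.02114 are highest in Xins, and those of dd_smedV4_21323_0_1 and mk4.034612.00.01 step down from X1 over X2 to Xins. Those of dd_smedV4_2520_0_1 and OX_Smed_1.0.20673 are highest in X2, and those of the 3 steady members overlap.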

How the data were processed

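The scanner tables that were deposited give linear intensity per spot. Feature Extraction 11.5.1.1 made them, per the file headers, and subtracted background from the processed signal, with surrogates in place of too low values. The value matrix that the authors deposited was read as natural log from its slope against the scanner signal (0.694 to 0.695 on 5 arrays, 0.717 on X2 array 1, per log2 unit), with column medians of 1.01, 1.16, 0.981, 1.12, 1.14 and 1.31; how it was normalized and centred is not known here, and it served as an alternative. The submitters' processing notes name limma.

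Control spots and 11 outlier spots were left out. Log2 signals were averaged over the spots of a distinct sequence, and the 75th percentile over sequences above background on all 6 arrays was subtracted. Above background means at least 50% of the spots marked so by the software. Sequences so marked by both arrays of 1 or more gates entered 1 limma model (version 3.58.1, R 4.3.3, package data.table at version 1.17.8) of the 3 gates, with Benjamini-Hochberg adjustment over the 1578 sequences. The moderated test had 6.52 degrees of freedom, and the fit was tested on simulated data. Bounds set the bright gate's mean against, per dim array, the higher of the lowest above-background signal and the sequence's own.

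The members and lists were chosen with earlier results of these data known. Named sites were, per contrast, the 2 largest rises and 2 largest falls among called members marked on all 4 arrays compared, with no overlap between the gates, plus up to 2 called above and 2 called below both other gates in X2 (none was below) and the 3 brightest steady members. Alternatives covered scaling, normexp with offset 50 and quantile normalization, the filter, saturation, blocks, an intensity trend, single arrays left out, the window, the width limit and 1 sequence per site.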

Additional observations from a re-analysis of the deposited data

How the results depend on the processing

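Counts of members called are given as higher and lower. Above background on all 6 arrays, they were 21 and 63 for Xins against X1, 4 and 3 for X2 against X1, and for the Xins and X2 contrast 9 and 42, with 74 in the F test, as fewer sequences were tested. With no filter, 63 fell in Xins against X1, 5 rose in X2 against X1, 7 fell in Xins against X2 and 92 passed the F test, and the medians of Xins against X1 and Xins against X2 turned to 0.075 and 0.13. Normexp with quantile normalization gave 27 rises in Xins against X1, 4 and 10 in X2 against X1, 11 and 31 in Xins against X2 and 75 in the F test. Spike-in scaling gave 63 falls in Xins against X1, 2 falls in X2 against X1, 9 and 40 in Xins against X2 and 95 in the F test, and turned the median of X2 against X1 to 0.41. The authors' values gave 67 falls in Xins against X1 and 14 in Xins against X2. Falls in X2 against X1 numbered 17 with the percentile over all sequences and 8 with an intensity trend, and the slide row as a block gave 15 and 13 there. A width of at most 10 nt left 30 rises in Xins against X1, 5 in X2 against X1, 15 in Xins against X2 and 130 members on both Xins arrays. The cause of these shifts was not tested, apart from smaller sets under the filter and the width limit.

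Same-numbered arrays deviated together (r = 0.472 for Xins and X1, 0.598 for X2 and X1, 0.394 for Xins and X2), but with 2 numbers the labels do not show a pairing. The replicate block gave 75 and 148 for Xins against X1, 43 and 54 for X2 against X1, 44 higher and 128 lower for Xins against X2 and 229 in the F test.

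Leaving out 1 array, where a lone array is assumed to vary like the others, gave 36 to 46 rises and 68 to 101 falls for Xins against X1, 1 to 11 and 0 to 11 for X2 against X1, 12 to 30 higher and 9 to 47 lower for Xins against X2, and 99 to 126 in the F test. A single array marked 259 to 324 members in X1, 266 to 309 in X2 and 231 to 303 in Xins. The gap between the medians of members and other narrow sites cannot move where a choice shifts all sequences alike or leaves fold changes as they are. Where it moved, it stayed below 0 in 11 of 11 alternatives for Xins against X1 (-0.59 to -0.0035), in 9 of 9 for the X2 with X1 contrast and in 10 of 11 for Xins with X2. Of 255 alternative values of the 15 calls at named sites, 40 lost the threshold and 0 turned their sign. At these 15 calls the sign could not turn where a choice leaves fold changes as they are. Nor could it with 1 array left out, since the arrays of the gates compared did not overlap there. Signal over background limits the results too, since 74.4% of members were marked on no array.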
